A study of Mus musculus with 3 samples.

Results

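The kinases, adaptors and phospholipases that act directly below the IgE receptor of mast cells were examined in cultured mast cell progenitors (MCps) labeled WT or p85α−/−. The 9 genes, of 27962 gene names on the array, are Syk, Lyn, Fyn, Btk, Lat, Lat2, Lcp2, Plcg1 and Plcg2. Every non-control probe whose gene name on the array was one of these was taken, which gave 13 of the 41174 probes and 31 spots on each array. Lyn and Lat2 had more than 1 probe, as did Plcg1, and the remaining 6 genes had 1 each. All 13 probes had a value on every array and were among the 41157 that were tested.

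The high-affinity IgE receptor (FcεRI) has no enzyme activity of its own. When antigen cross-links bound IgE, the Src family kinase Lyn phosphorylates the receptor's β and γ chains, and the kinase Syk docks on the phosphorylated γ chains. Fyn, another Src family kinase, acts in parallel through the adaptor Gab2 and PI3K. The membrane adaptors Lat and Lat2 (also called NTAL) are phosphorylated next. Lat gathers the cytosolic adaptor Lcp2 (SLP-76), the Tec family kinase Btk and the phospholipases Plcg1 and Plcg2. The phospholipases release the messengers that open calcium stores and activate protein kinase C, and the mast cell degranulates. Btk is brought to the membrane by the lipid product of PI3K, the enzyme whose regulatory subunit p85α is encoded by Pik3r1.

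The study asked which genes differ between MCps with and without p85α after exposure to stem cell factor (SCF), the ligand of the receptor KIT. Mononuclear cells from the marrow of 3 WT and 3 p85α−/− mice were each grown apart for 7 days with IL-3 at 10 ng/mL. Cells positive for both KIT and the IgE receptor were then sorted and kept with SCF at 100 ng/mL for 48 hours. All cultures, WT included, received both cytokines, and none was described as exposed to antigen. Each of 3 Agilent arrays took 1 WT culture (Cy3) and 1 p85α−/− culture (Cy5) after global PCR amplification of the cDNA, with no dye swap, so that dye and genotype cannot be told apart.

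Spots had median raw signals of 71.5 to 141.2 in the WT channel and 206.6 to 517.3 in the p85α−/− channel, over local backgrounds of 32.5 to 33.5 and 51. Between 69.4% and 85.3% of the WT spots and between 77.3% and 93.8% of the p85α−/− spots were well above background. Pik3r1, the gene disrupted in these mice, had 4 probes, with mean log2 ratios of p85α−/− over WT from −0.58 ± 0.41 to 0.59 ± 0.79 (SD, n = 3 arrays). Whether any of them lies in the deleted part is not given in the sources used here, so they give no check of the genotypes, and every direction below is that of cultures labeled p85α−/− against cultures labeled WT. The paper reports, with the data not shown, that western blotting found p85α lost in mast cells grown from the marrow of p85α−/− mice. The log2 ratios of different arrays were nearly unrelated across all probes (Pearson's r of 0.01, 0.17 and −0.03, across probes, which are not independent replicates).

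Levels are log2 intensities after quantile normalization, given for replicates 1, 2 and 3 in that order, and a log2 ratio is the p85α−/− level minus the WT level on the same array. A probe passed both criteria of the study's methods when its mean ratio reached 1.5-fold and its unadjusted p was under 0.05, here by limma. Of all 41157 probes, 4.44% passed both, 2.78% with the higher level in p85α−/− and 1.66% with the lower. The share with an adjusted p under 0.05 (Benjamini-Hochberg over all probes) was 0%, and no adjusted p was below 0.763. An unadjusted p under 0.05 was reached by 1829 probes, and all 1829 passed both criteria, so the fold criterion removed none. In simulated data with the arrays' spread, 2199 unchanged probes passed both. Among the members, 2 of 13 probes passed both criteria, those of Btk and Lcp2, both higher in p85α−/−, and 0 had an adjusted p under 0.05. With 3 pairs of cultures the smallest p that an exact two-sided permutation test could give is 0.25, so no single member was tested that way.

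The sequences upstream of Btk and Lcp2 are shown because these were the members that passed both criteria and had higher levels in every p85α−/− culture. Each is the 250 bases before the RefSeq start of the gene in GRCm38.p6, on the gene's strand. Btk lies at chrX:134583141-134583390 on the minus strand and Lcp2 at chr11:34046678-34046927 on the plus strand. Capitals mark 2 motifs searched on both strands, AGGAAG, a core bound by ETS family factors, and AGATAA, a core bound by GATA factors. The motifs were chosen after the expression values were known.
Btk: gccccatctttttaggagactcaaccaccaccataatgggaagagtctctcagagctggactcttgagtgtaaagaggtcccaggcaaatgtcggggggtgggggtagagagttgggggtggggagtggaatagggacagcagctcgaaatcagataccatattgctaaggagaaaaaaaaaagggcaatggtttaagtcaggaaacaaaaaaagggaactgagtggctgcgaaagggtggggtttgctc
Lcp2: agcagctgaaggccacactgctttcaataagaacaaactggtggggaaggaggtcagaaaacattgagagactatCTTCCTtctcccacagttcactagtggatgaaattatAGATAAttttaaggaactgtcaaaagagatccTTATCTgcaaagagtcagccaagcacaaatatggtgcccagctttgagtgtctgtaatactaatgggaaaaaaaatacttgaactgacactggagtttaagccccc

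The Lcp2 window held 1 match to AGGAAG and 2 to AGATAA, none of them overlapping, and the Btk window held none of either. Of 32851 windows of this length over all genes, 29.5% held AGGAAG and 9.99% held AGATAA. Windows were found for 7 of the 9 members (8 windows), of which 2 held AGGAAG (Lat and Lcp2) and 2 held AGATAA (Lcp2 and Plcg2). A match describes the letters of the window and was not tested for binding.

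Of the kinases, Btk had the highest mean ratio among all members with all arrays. Without replicate 2 the brighter Lat2 probe was higher, at 3.30 against 2.51 for Btk. The ratios of Lyn were above 0 on every array, and those of Fyn and Syk changed sign between arrays. Btk, the Tec family kinase, had WT levels of 11.68, 8.44 and 11.65 and p85α−/− levels of 14.40, 12.28 and 13.95. All p85α−/− cultures lay above all WT cultures, and replicate 2 was the dimmest of both genotypes. Over all probes, 4.54% had every p85α−/− culture above every WT culture and 5.94% had every p85α−/− culture below. The Btk ratios were 2.72, 3.83 and 2.31, a mean of 2.95 ± 0.79 (SD, n = 3) or 7.75-fold, with a limma SE of 0.405, a 95% interval of 1.80 to 4.11 and an adjusted p of 0.763. Its raw signal averaged 1128, 122 and 1746 in the WT channel and 68571, 7987 and 38297 in the p85α−/− channel. By the methods' t-test Btk passed both criteria when the cultures were paired by array and did not when they were unpaired.

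Lyn, the kinase that starts the cascade, had 2 probes. The brighter had WT levels of 8.59, 9.08 and 8.88 and p85α−/− levels of 9.50, 9.23 and 9.23. The p85α−/− cultures were again all above the WT cultures, by a narrow margin on replicate 2, with ratios of 0.92, 0.15 and 0.35. The mean was 0.47 ± 0.40 with a 95% interval of −0.34 to 1.28 (limma, adjusted p = 0.908). It was 0.25 without replicate 1, and 1.07 and past both criteria with each array centred on its median. The second probe was well above background in WT on 1 of 3 arrays and in p85α−/− on all 3. Its ratios of 1.80, 0.39 and 0.24 were above 0 on every array as well (0.81 ± 0.86, adjusted p = 0.908), with a mean of 0.32 without replicate 1 and of 2.52, past both criteria, with the software's processed signals.

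Fyn, which feeds the Gab2 and PI3K arm, was dim, with levels of 7.25, 7.67 and 7.59 in WT and 7.34, 7.10 and 7.29 in p85α−/−. The groups overlapped, and the mean ratio of −0.26 ± 0.33 had a 95% interval of −1.03 to 0.50 (limma, adjusted p = 0.909). The mean was −0.62 with the software's processed signals and −0.11 without replicate 2, and passed both criteria in neither case. Syk, the kinase that docks on the receptor, had WT levels of 10.73, 9.08 and 11.37 and p85α−/− levels of 8.14, 10.05 and 7.79. The p85α−/− cultures of replicates 1 and 3 were below all WT cultures, whereas that of replicate 2 was above its own WT partner. The ratios of −2.58, 0.97 and −3.58 gave a mean of −1.73 ± 2.39 with a 95% interval of −4.69 to 1.23 (limma, adjusted p = 0.908). Without replicate 2 the mean ratio of Syk was −3.08 and passed both criteria (limma, adjusted p = 0.592), and without replicate 3 it was −0.81 and did not pass.

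**Figure D1:**
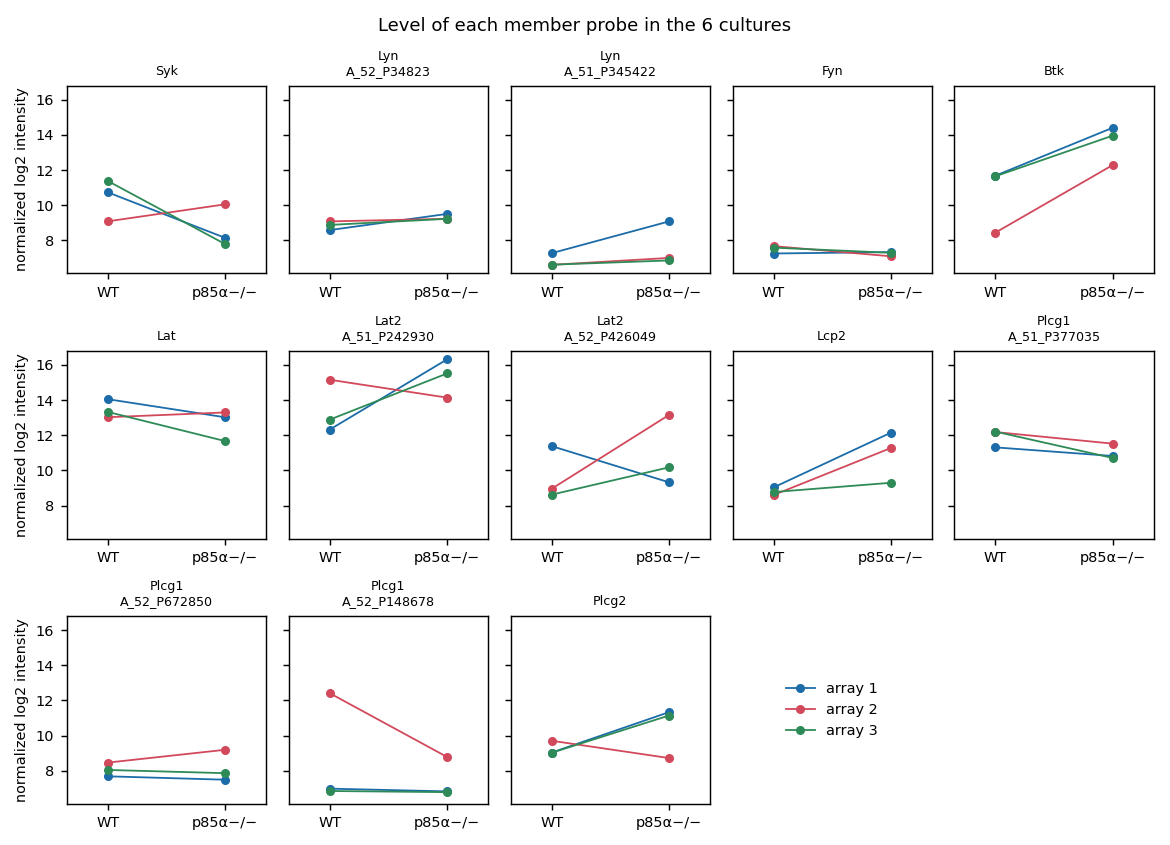
Normalized log2 intensity (vertical axis) of each of the 13 member probes in the WT and p85α−/− cultures, with 1 line per array joining the 2 cultures hybridized together. All 3 lines go up for Btk, Lcp2 and both Lyn probes, and the line of array 2 runs against the other two for Syk, Lat, Plcg2, the brighter Lat2 probe A_51_P242930 and the Plcg1 probe A_52_P672850.

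The adaptors differed among themselves. Lcp2 was higher in p85α−/− on all arrays, and Lat and Lat2 changed sign between arrays. Lcp2, the cytosolic scaffold that holds Btk and the phospholipases near Lat, had WT levels of 9.03, 8.60 and 8.77 and p85α−/− levels of 12.14, 11.27 and 9.30. The WT cultures lay close together, and the p85α−/− cultures all lay above them, replicate 3 by the least. The ratios of 3.11, 2.67 and 0.53 averaged 2.10 ± 1.38 (SD, n = 3) or 4.29-fold, with a limma SE of 0.627, a 95% interval of 0.31 to 3.89 and an adjusted p of 0.908. Lcp2 no longer passed both criteria without replicate 1 (1.60) or without replicate 2 (1.82), nor by either form of the methods' t-test.

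Lat, the membrane adaptor that recruits phospholipase Cγ, had WT levels of 14.05, 13.02 and 13.32 and p85α−/− levels of 13.02, 13.29 and 11.67. The groups overlapped, with the lowest level in the p85α−/− culture of replicate 3. The ratios of −1.03, 0.27 and −1.66 gave −0.80 ± 0.98 with a 95% interval of −2.16 to 0.55 (limma, adjusted p = 0.908). When each array was centred on its median in place of quantile normalization, the mean of Lat was 0.47 and thus of the other sign. Without replicate 2 it was −1.34 and passed both criteria (limma, adjusted p = 0.614), and without replicate 3 it was −0.38 and did not.

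Lat2, the related adaptor that lacks the docking site for phospholipase Cγ, had a bright probe with WT levels of 12.32, 15.15 and 12.89 and p85α−/− levels of 16.31, 14.14 and 15.51. Replicates 1 and 3 were higher in p85α−/− and replicate 2 was lower, with ratios of 3.98, −1.01 and 2.62 and a mean of 1.86 ± 2.58 (95% interval −1.33 to 5.05, limma, adjusted p = 0.908). The second Lat2 probe had ratios of −2.05, 4.19 and 1.55 (1.23 ± 3.13, 95% interval −2.62 to 5.07, adjusted p = 0.913). The probes had opposite signs on 2 of 3 arrays, so Lat2 has no settled direction on those arrays. Without replicate 2 the bright probe averaged 3.30 and passed both criteria (limma, adjusted p = 0.592). It averaged 0.80 without replicate 1 and then did not pass. The second probe went the other way, with a mean of 2.87, past both criteria, without replicate 1 and of −0.25 without replicate 2.

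Neither phospholipase passed both criteria. Plcg1, a phospholipase that Lat gathers, had 3 probes. The brightest had WT levels of 11.31, 12.18 and 12.21 and p85α−/− levels of 10.82, 11.52 and 10.71. It was lower in p85α−/− on every array, with 1 p85α−/− culture above 1 WT culture, and its ratios of −0.49, −0.66 and −1.50 gave −0.88 ± 0.54 (95% interval −1.80 to 0.04, limma, adjusted p = 0.908). Centring each array on its median turned the mean of this probe to 0.10, and with loess and Aquantile normalization it was −0.81 and passed both criteria. Without replicate 3 it was −0.57.

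The other Plcg1 probes did not show the same ratios. The second had −0.19, 0.73 and −0.18 (0.12 ± 0.53, limma, adjusted p = 0.968). The third had −0.15, −3.62 and −0.06 (−1.28 ± 2.03, adjusted p = 0.908), and was well above background in p85α−/− on 1 of 3 arrays, the array with the large ratio. Without replicate 2 its mean was −0.11 and that of the second probe −0.19. Plcg2, the form found mainly in blood cells, had WT levels of 9.04, 9.71 and 9.03 and p85α−/− levels of 11.33, 8.73 and 11.14. As with the bright Lat2 probe, replicates 1 and 3 were higher in p85α−/− and replicate 2 was lower. The ratios of 2.29, −0.98 and 2.11 averaged 1.14 ± 1.84 (95% interval −1.18 to 3.46, limma, adjusted p = 0.908), and without replicate 2 the mean was 2.20 and passed both criteria (adjusted p = 0.592). It was 0.57 without replicate 1 and 0.66 without replicate 3, and passed in neither case.

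**Figure D2:**
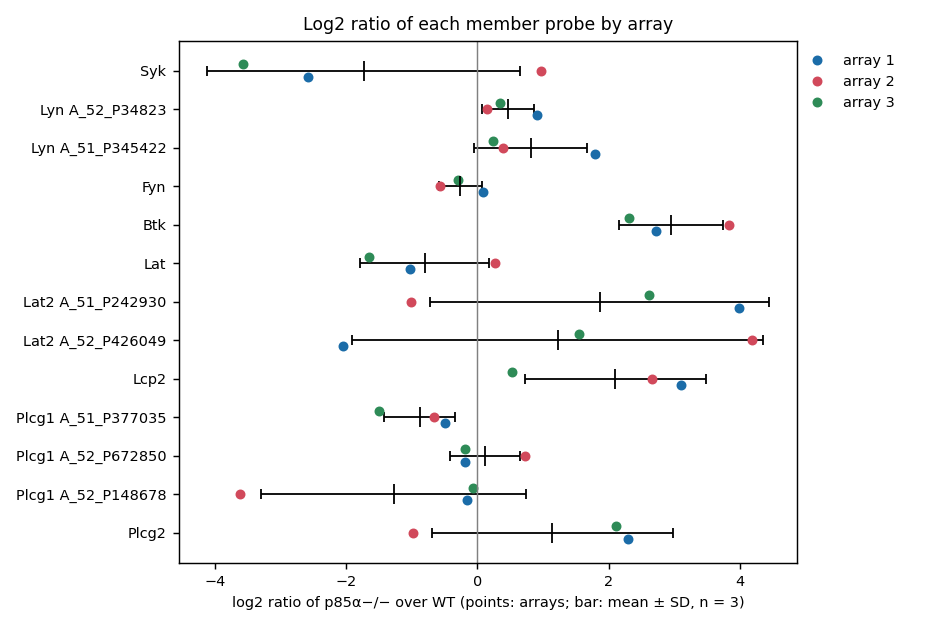
Log2 ratio of p85α−/− over WT (horizontal axis) for each member probe, with 1 point per array and the mean ± SD of 3 arrays as a bar. The Btk points lie between 2.31 and 3.83, whereas the points of Syk, Plcg2 and both Lat2 probes lie on either side of 0.

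Taken by the brightest probe of each gene, 5 of the 9 members had a mean ratio above 0 and 4 below, with a median of 0.47 that was 0.25 without replicate 1 and 1.07 with median centring. Over all tested probes the median was −0.049 and 44.8% were above 0. Of the 13 member probes, 4 had a ratio above 0 on every array, where 12.5% of all probes did, and 2 had a ratio below 0 on every array, where 13.3% did. Every p85α−/− culture was above every WT culture for 3 member probes (Btk, Lcp2 and the brighter Lyn probe) and below for 0, against the 4.54% and 5.94% of all probes. With 13 probes, shares of the members move in steps that are large beside those percentages.

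Replicate 2 alone had the other sign for Syk, Lat, Plcg2 and the brighter Lat2 probe, 4 of the 9 genes. Replicate 1 alone had it for 1 gene, Fyn, and replicate 3 alone for 0. This grouping was seen after the values were known. Over all probes replicate 2 alone had the other sign for 29.8%, replicate 1 alone for 20.8% and replicate 3 alone for 23.5%, and 25.8% had 1 sign on all arrays. Without replicate 2, 5 member probes passed both criteria, and over all probes 3165 of 41159 passed, against 1829 of 41157 with all arrays. Besides Btk, at 2.51, these members were Syk, Lat, Plcg2 and the brighter Lat2 probe, whose array with the other sign was the one left out. Of all probes that passed without replicate 2, 47.5% had the higher level in p85α−/−, against 62.6% with all arrays.

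Btk and Fyn were each spotted 10 times on every array, which separates the error of a spot from the difference between arrays. Within an array the SD of the Btk log2 ratio over spots was 0.071, 0.110 and 0.066, and that of Fyn was 0.081, 0.089 and 0.092. Between arrays the SD was 0.79 for Btk and 0.33 for Fyn, in both cases above the spread of the spots. Even the lowest Btk spot kept, at 2.18 on array 3, was well above 0, whereas the Fyn spots of array 1 ranged from −0.06 to 0.22. Over the 245 probes with 10 spots the median SD was 0.083 within arrays and 0.685 between arrays. Spots of 1 array share the same 2 amplified cDNA samples and are not replicates of the genotype.

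**Figure D3:**
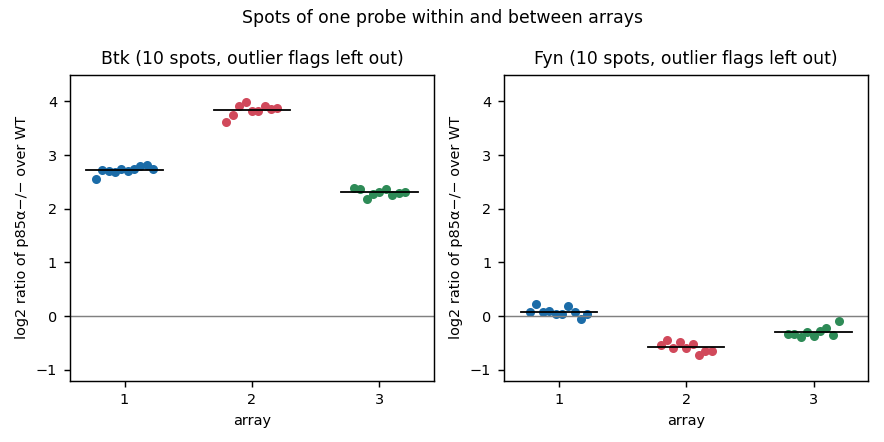
Log2 ratio of p85α−/− over WT (vertical axis) at each spot of the Btk and Fyn probes by array, with the mean of an array as a line. Spots with an outlier flag are left out (9 or 10 spots kept), and the spots of an array lie closer together than the arrays do for Btk.

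Probes of 1 gene can be set against each other as ratios on the same array. The Lyn probes differed by −0.88, −0.25 and 0.10 in log2 ratio on the 3 arrays and never in sign. The Lat2 probes differed by 6.04, −5.21 and 1.07. Among the 5824 gene names with 2 tested probes, the median absolute difference was 0.753 and the 90th percentile 2.79, so the Lyn probes differed by more than the former on 1 array and by less on the others, and the Lat2 probes by more than the latter on 2 arrays. Over those gene names, 46.0% of the pairs on an array had opposite signs. The array's annotation places the Lyn probes at chr4:3716905-3716964 and chr4:3717973-3718032, and the Lat2 probes at positions 7283972 to 7284031 and 7288270 to 7289459 of an unplaced sequence (Un_random). It places Btk at chrX:129261735-129261794 and Lcp2 at chr11:34042912-34042971. That annotation names no genome build, so these positions cannot be set beside the RefSeq windows above and no exon was assigned.

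The genes around the members in the same pathway were taken from 5 lists with 49 genes, all of which were measured. By their brightest probes 21 had a mean ratio above 0 and 28 below, with a median of −0.075, and 1 passed both criteria in the higher direction and 0 in the lower. Without replicate 3, 28 were above 0 (median 0.16), and the median was 0.004 without replicate 1 and 0.48 with median centring, so the 49 genes had no settled direction. That gene was Fcer1g, the γ chain on which Syk docks. Its WT levels were 11.27, 13.34 and 12.67 and its p85α−/− levels 13.97, 14.65 and 13.93, so the groups did not overlap. The ratios of 2.71, 1.31 and 1.26 averaged 1.76 ± 0.82 (limma, adjusted p = 0.908). Fcer1g passed both criteria without any 1 of the replicates (1.29 to 2.01) and by neither form of the methods' t-test.

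The other receptor chains varied more. Fcer1a, the chain that binds IgE, had ratios of −2.99, 3.32 and 1.39 (0.57 ± 3.24, limma, adjusted p = 0.963), so its levels crossed between the arrays although all cultures had been sorted for the receptor. Ms4a2, the β chain, had ratios of 0.79, 3.35 and 0.25 (1.47 ± 1.66, adjusted p = 0.908) and was well above background in WT on 1 of 3 arrays. All 3 chains had means above 0, also with median centring, whereas the mean of Fcer1a was −0.80 without replicate 2 and 2.36, past both criteria, without replicate 1. With the software's processed signals the mean of Ms4a2 was 2.84 and passed both criteria, and without replicate 2 it was 0.52 and did not.

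Among 10 other kinases, those of the Src, Syk and Tec families and Csk, which inhibits Src family kinases, 2 had a mean above 0, with a median of −0.27, and 0 passed both criteria, and with each array centred on its median 6 were above 0 and the list's median was 0.08. The median was −0.15 without replicate 1, and without replicate 3 there were 4 above 0 and 1 past both criteria. Among 12 other adaptors and exchange factors, 5 were above 0 (median −0.10) and 0 passed, and with median centring 9 were above 0 (median 0.49) and 2 passed. The median of this list was 0.21 without replicate 1, −0.46 without replicate 2 and 0.53 without replicate 3, with 0, 1 and 1 past both criteria, and 1 passed with loess and Aquantile, without the pairing by array and by the unpaired form of the methods' t-test. Gab2, which couples Fyn to PI3K, had −0.11 ± 0.23, Grb2 had −0.27 ± 1.41, and Grap2, the partner of Lcp2, had −0.08 ± 0.93. Vav1, an exchange factor bound by Lcp2, had 0.48 ± 2.80 and thus no stable direction. Blnk, an adaptor related to Lcp2, had lower levels in every p85α−/− culture than in any WT culture (−0.52 ± 0.20, limma, adjusted p = 0.908), a mean that was −0.03 with median centring. Rasgrp4, a Ras exchange factor of mast cells, had higher levels in every one (0.79 ± 0.56, limma, adjusted p = 0.908). It passed both criteria with median centring (1.85), with loess and Aquantile (0.84), without the pairing by array and by the unpaired form of the methods' t-test. Its mean was 0.48 without replicate 2.

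Of 11 negative regulators, 4 had a mean above 0 (median −0.08) and 0 passed both criteria. With median centring 9 were above 0 (median 0.50) and 1 passed, and 1 passed without replicate 1. Without replicate 2 the median was −0.26 and 3 passed, and without replicate 3 it was 0.21. Inpp5d, the phosphatase SHIP that removes the PI3K product, had 0.23 ± 1.86, the phosphatase Ptpn6 had −0.23 ± 0.49, and the ubiquitin ligase Cbl had −0.003 ± 0.81. Of 13 calcium and protein kinase C genes, 7 were above 0 (median 0.26) and 0 passed. With median centring 10 were above 0 (median 0.55) and 2 passed, and the median was 0.07 without replicate 2 and −0.07 without replicate 3. The count past both was 2 without replicate 1, 1 without replicate 2 and 1 without replicate 3. It was 1 with loess and Aquantile and 1 with the software's processed signals. When each array was centred on its median, whereby the median ratio over all probes became 0.090 in place of −0.049, 7 of the 9 members and 37 of the 49 pathway genes were above 0, and 91.1% of the probes past both criteria were higher in p85α−/− against 62.6%.

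**Figure D4:**
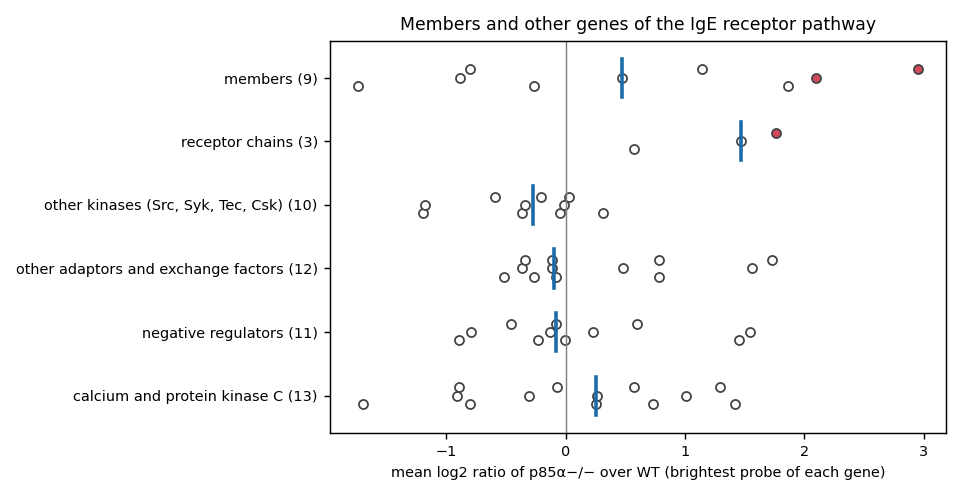
Mean log2 ratio of p85α−/− over WT (horizontal axis) for the 9 members and the 49 genes of the 5 pathway lists, 1 circle per gene by its brightest probe, with each list's median as a vertical blue line. Filled circles passed both criteria and are Btk, Lcp2 and Fcer1g, and the list medians run from −0.27 to 1.47.

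In bulk cultures fewer cells of a type and less RNA per cell cannot be told apart, so markers of mast cells and of other blood cell types were measured beside the members. A gate for cells double positive for KIT and the IgE receptor would leave out neutrophils, macrophages, T cells, B cells and platelets. Of 13 mast cell markers, 12 had a mean above 0 (median 0.96) and 3 passed both criteria, and 12 were well above background in all WT and 13 in all p85α−/− cultures. The log2 of their summed level ranged from 14.9 to 16.1 in WT and from 16.6 to 17.4 in p85α−/−, without overlap. The median ratio of the list was 1.82 without replicate 1, where 5 passed both criteria, and 0.52 without replicate 2, where 2 passed. Without replicate 3 it was 0.72, with 9 of 13 above 0 and 3 past both. With median centring it was 2.06 and 6 passed both criteria, and by either form of the methods' t-test 1 passed. Fcer1a and Ms4a2 are among these markers too. Kit itself, on which the cells were sorted, had ratios of 1.45, 2.19 and 2.54 (2.06 ± 0.56, limma, adjusted p = 0.784), and passed both criteria without any 1 of the replicates (1.82 to 2.37) and by both forms of the methods' t-test. Btk, Lcp2 and Fcer1g were higher in the same cultures as the summed mast cell markers, and the part of those markers in the result was not tested.

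Of 8 neutrophil markers, 5 had a mean above 0 (median 1.51) and 2 passed both criteria. The count past both was 5 without replicate 2 and 0 without replicate 1, without replicate 3, without the pairing by array and by either form of the methods' t-test, and the median was 0.40 without replicate 3. With median centring the median was 2.62 and 3 passed. Of these markers, 7 were well above background in all WT and 8 in all p85α−/− cultures. The log2 of their summed level ranged from 13.1 to 14.2 in WT and from 11.6 to 17.8 in p85α−/−. Their median ratios on replicates 1, 2 and 3 were 1.99, −0.05 and 2.98. Of these markers, Elane and Mpo alone were lower in p85α−/− on replicate 2 only, as were Plcg2 and the brighter Lat2 probe. Camp, S100a8 and S100a9 were above 0 on all arrays, least on replicate 2. Prtn3, Ltf and Ngp had other patterns, as did the second Lat2 probe. The part of neutrophil markers in the ratios of Plcg2 and Lat2 was not tested. The median ratios of the other lists were −0.04 for 6 macrophage markers, 0.03 for 7 T cell markers, −0.04 for 6 B cell markers, 0.52 for 5 megakaryocyte and platelet markers and 0.38 for 2 basophil markers, and 0 genes of these lists passed both criteria. The basophil median was −0.06 without replicate 1 and −0.32 without replicate 3, and the megakaryocyte and platelet median was 0.09 without replicate 3. The T cell, B cell and macrophage medians changed sign when single replicates were left out, and stayed between −0.24 and 0.08. Past both criteria were then 1 basophil and 1 B cell marker without replicate 2, 1 megakaryocyte or platelet marker without replicate 1 and 1 macrophage marker without replicate 3. With median centring the medians were 1.19 for basophil, 0.33 for macrophage, 0.30 for T cell, 0.47 for B cell and 0.51 for megakaryocyte and platelet markers, and 1 basophil and 1 megakaryocyte or platelet marker passed. The B cell list shares Blk and Blnk with the pathway lists.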

How the data were processed

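RNA of 3 WT and 3 p85α−/− cultures was measured on 3 two-dye arrays of 1 slide scanned on 1 day. The authors deposited scanner files made with Feature Extraction, with mean spot intensity, local background, processed intensity and a log10 ratio per spot, and a table of log10 ratios. That table was not used, because on replicates 2 and 3 only 190 and 226 of 40929 single-spot probes carried their own scanner ratio (tolerance 1.5e-05).

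Intensities were background corrected (normexp, offset 50), quantile normalized over the 6 channels on the log2 scale (R 4.3.3, limma 3.58.1), and control and outlier-flagged spots left out. Values of repeated spots were averaged per probe. The log2 ratio was tested with limma, paired by array, with Benjamini-Hochberg adjustment over 41157 probes. The brightest probe stands for a gene. Named genes were all members, 10 pathway genes fixed by name, pathway genes past both criteria, and Kit; genes named beyond these were chosen after their values were seen. Members and lists were chosen with earlier results of these data known. In simulated data with the arrays' spread, 80% of 200 probes changed by 2 on the log2 scale passed both criteria, as did 2199 unchanged probes, and 0% had an adjusted p under 0.05. Alternatives are given in the closing section. The number of arrays limits the precision.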

Additional observations from a re-analysis of the deposited data

How the results depend on the processing

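Under the alternatives tried, the mean log2 ratio of 7 of the 9 members kept its sign in 12 of 12 settings, the t-tests not counted. Leaving out dim probes or the pairing by array cannot move a mean, nor can averaging over probes for a gene with 1 probe. The ratios of Syk, Fyn, Plcg2 and the brighter Lat2 probe still changed sign between arrays. Lat and Plcg1 had the other sign in 1 setting each, the centring of each array on its median, with 0.47 and 0.10. Btk passed both criteria in 12 of 12 (range 2.51 to 4.26) and Lcp2 in 10 of 12 (1.60 to 2.89). The mean over the 2 Lat2 probes was 1.55 and passed both criteria (limma, adjusted p = 0.908). With all arrays neither probe passed alone, and their signs were opposite on 2 of 3 arrays, so this average gives Lat2 no settled direction. The number of member probes past both criteria was 2 with all arrays, 3 with loess and Aquantile (the brightest Plcg1 probe added), 3 with median centring (the brighter Lyn probe added), 4 with the software's processed signals and 4 with its log ratio, 2 to 5 when 1 replicate was left out, 0 with the methods' t-test unpaired and 1 with it paired by array. The probes gained with the processed signals and the log ratio were the second Lyn probe and the third Plcg1 probe. Over all probes the count of 1829 became 1633 with loess and Aquantile, 2692 with median centring, 2123 with processed signals, 2040 with the log ratio, 1557 to 3165 when 1 replicate was left out, the highest without replicate 2, 1125 with the t-test unpaired and 819 paired. Pathway genes past both criteria numbered 1 with all arrays, 3 with loess and Aquantile, 6 with median centring, 3 with processed signals, 2 with the log ratio, 4 to 6 when 1 replicate was left out, 2 without the replicate block of the pairing by array and 0 with the paired t-test. Without that pairing Btk had an adjusted p of 0.886 by limma, and 2 member probes passed. Member probes with an adjusted p under 0.05 numbered 0 in every setting. The split between higher and lower calls was also moved by leaving out replicate 2 (47.5% higher). The cause of these changes was not tested. The Lyn probe A_51_P345422 and the Plcg1 probe A_52_P148678 were not well above background in some cultures, which limits their ratios.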
